A study of Mus musculus with 11 samples.

Results

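DNA-dense objects were the segmented objects of a mouse hippocampal section that were brightest in DAPI for their volume without being among the brightest in PolyT. DAPI is a dye that binds DNA, and PolyT is a probe for polyadenylated RNA. Objects under 100 µm3 or with fewer than 10 transcripts were set aside, and the remaining, kept objects were ranked within their section. Members were chosen by measured values: they had a DAPI intensity per volume at or above the 95th percentile of the kept objects of their own section and a PolyT intensity per volume below the 95th. Of 831598 objects in 11 sections, 232117 were kept, and 8466 of these were members.

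The sections came from adult male wild-type C57Bl/6 mice of 10 to 12 weeks and were imaged by MERFISH, a method that images individual RNA molecules with barcoded probes. Isotype antibodies were the treatment of CONTROL mice (n = 3 sections), while those of CONTROL ICI (n = 3) were given 2 immune checkpoint inhibitors (ICI) for 3 weeks, anti-CTLA-4 (1 mg, 3 times a week) and anti-PD-1 (200 µg, 2 times a week). In MELANOMA (n = 2) and MELANOMA ICI (n = 3), 500000 cells of the mouse melanoma line D4M-3A.UV2 had been injected into the skin of both sides 1 week before isotype antibodies (MELANOMA) or the 2 inhibitors (MELANOMA ICI) began. The sections were 10 µm thick, and no label ties a section to an animal. The p-values therefore rest on the spread among sections only, part of which may be technical. The tables give 1 transcript total per object. With no values by gene analysed here, cell types are not named and the labelled tissue was not checked against markers.

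DAPI brightness per volume depends on how much of an object is nucleus and on how compact its chromatin is. In the hippocampus the nuclei of the principal neurons lie close together in thin curved layers, with scattered glia, blood vessel cells and interneurons between them. Small nuclei with compact chromatin are a known feature of some glial and vessel cells, and closely packed granule cells are known for small round nuclei. These are background facts, and the tables hold nothing that assigns a member to a cell type.

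The first 5 digits of the object identifiers split the sections into 3 sets, called imaging runs here, although no label or header names them so. Members differed between these sets, and values by run are given beside the results. In run 3 were MELANOMA ICI 1, CONTROL ICI 3 and CONTROL 3, the sections that differ most below. In run 2 were MELANOMA ICI 3, MELANOMA 2 and CONTROL 2, and the other 5 sections were in run 1. Kept objects numbered 8865 (CONTROL ICI 3) to 46099 (CONTROL 3) per section, and assigned transcripts 349960 to 3164943 in the same sections. The kept share differed by run. In runs 1 and 2 it ran from 13547 of 115421 objects (CONTROL ICI 2) to 23767 of 73729 (CONTROL 2). In run 3 it was 46099 of 53522 in CONTROL 3, 34722 of 46254 in MELANOMA ICI 1 and 8865 of 16416 in CONTROL ICI 3. Percentiles and counts of kept neighbours thus refer to unlike parts of all objects in run 3 and the other runs.

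The values that chose the members are given as a description. The DAPI cut lay between 1007 (CONTROL ICI 2) and 1130 kilounits of intensity per µm3 (MELANOMA 2) in the 8 sections of runs 1 and 2. It was 1141 in CONTROL 3, 1334 in MELANOMA ICI 1 and 1817 in CONTROL ICI 3. As a multiple of the section's median the cut was 1.89 to 2.20 in runs 1 and 2 and 2.75, 3.14 and 4.0 in those 3 sections of run 3. No gap in brightness separated members from the rest: in MELANOMA 2 the dimmest member had 1130 kilounits per µm3 and the brightest object below the cut 1129. The DAPI median of members was 2.15 (MELANOMA ICI 3) to 2.58 times (CONTROL ICI 2) that of the other kept objects in runs 1 and 2, and 3.29 to 4.32 times in run 3.

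**Figure D1:**
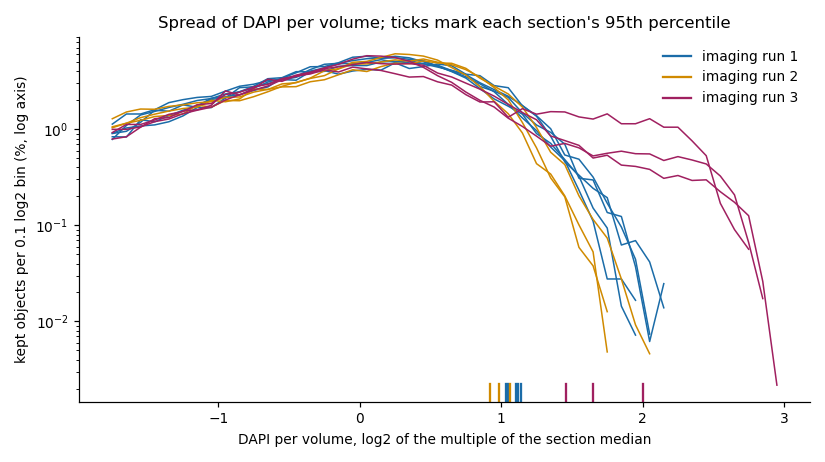
Spread of DAPI per volume in the 11 sections, as the percentage of kept objects (log axis) per bin of the log2 multiple of the section's median, with short ticks at each section's 95th percentile. Objects below the left end of the axis are not drawn. The 3 curves of run 3 carry a shoulder of bright objects that the 8 curves of runs 1 and 2 lack.

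Objects at or above 3 times the section's median DAPI per volume made up 4.11% of kept objects in CONTROL 3, 5.43% in MELANOMA ICI 1 and 10.1% in CONTROL ICI 3. In the 8 sections of runs 1 and 2 they made up 0.0589% (CONTROL 2) to 0.709% (CONTROL ICI 2). The top 5% of a section is thus the end of a smooth curve in runs 1 and 2 and part of a broad shoulder in run 3.

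The second condition of the rule, which leaves out objects that are also dense in PolyT, acted on few objects in runs 1 and 2 and on most in run 3. In run 3 it removed 53.8% of the DAPI-dense objects of CONTROL 3 (95% Wilson interval 51.8 to 55.9%), 61.7% in CONTROL ICI 3 (57.1 to 66.1%) and 71.6% in MELANOMA ICI 1 (69.4 to 73.6%). In runs 1 and 2 it removed 1.10% (MELANOMA 2, interval 0.633 to 1.92%) to 17.1% (CONTROL ICI 2, 14.5 to 20.1%), where about 5% would be removed if the stains were unrelated. These intervals cover counting error only. Members accordingly numbered 562 (CONTROL ICI 2) to 1163 (CONTROL 2) in runs 1 and 2, and 1064 in CONTROL 3, 494 in MELANOMA ICI 1 and 170 in CONTROL ICI 3. The PolyT median per volume of members was 1.26 to 1.68 times that of the others in run 3 and 0.998 to 1.08 times in runs 1 and 2, although the densest in PolyT had been taken out.

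Members did not lie evenly over the tissue. In each section of run 3, a pair of short curved bands facing each other, where objects are crowded, held members, though not all of them. DAPI-dense objects that are also dense in PolyT lay in the same pair of bands. CONTROL ICI 3 had few members elsewhere, MELANOMA ICI 1 had a further patch to the side, and CONTROL 3 had many along thin lines outside the bands. In runs 1 and 2 the sections held curved bands nearly empty of objects of any kind, and members lay scattered over the rest and along lines and patches.

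**Figure D2:**
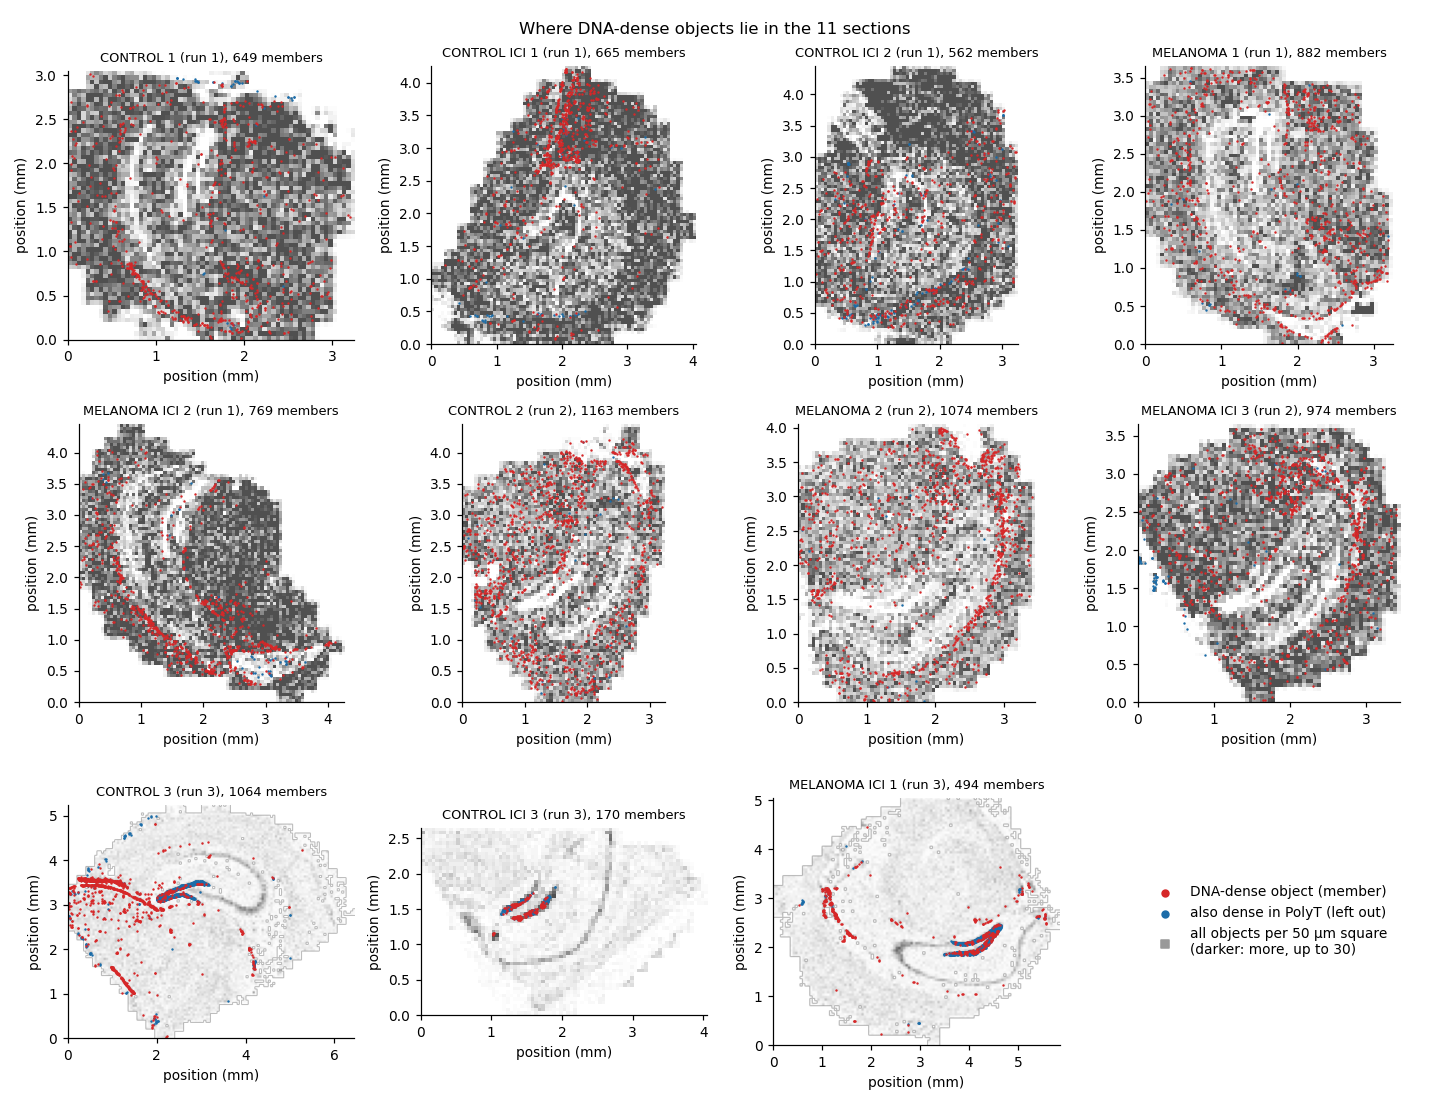
Positions of members (red) and of DAPI-dense objects left out because they are dense in PolyT (blue) in the 11 sections, over the number of all objects per 50 µm square (grey, darker for more, up to 30). Axes give the position in mm from the section's corner. In run 3 (bottom row) both kinds share a pair of short curved bands, and CONTROL 3 has red lines outside it, while members of runs 1 and 2 are spread along lines and over wide areas.

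Members lay close to other members in 11 of 11 sections. Of the kept neighbours within 50 µm of a member, 10.9% (CONTROL ICI 2) to 32.8% (CONTROL 3) were members, with a median over sections of 21.9%. Around the other kept objects the share was 2.04% (MELANOMA ICI 1) to 4.09% (CONTROL ICI 3), with a median of 3.19%. The shares around members and around others did not overlap between any sections. The mean log2 ratio of the 2 shares was 2.66 ± 0.76 (SD, n = 11), or 6.30-fold (two-sided exact sign-flip permutation over sections, p = 0.000977, the smallest that 11 sections allow; adjusted by Benjamini-Hochberg over 11 measures, 0.0107). By run the log2 ratio averaged 2.65 ± 0.75 (n = 5), 2.06 ± 0.42 (n = 3) and 3.27 ± 0.71 (n = 3) in runs 1, 2 and 3. The share is counted from membership alone, so the test shows only that objects chosen by these stains gather in space. Whether tissue structure or uneven staining gathers them was not tested.

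Differences in brightness between imaging fields were set aside by taking both percentiles within each field of at least 40 kept objects. The shares then ran from 4.72% to 6.70% around members and from 3.09% to 4.89% around others, and members were still the more frequent near members in 11 of 11 sections, by 1.25 times (CONTROL 2) to 1.65 times (CONTROL 3). The mean log2 ratio fell to 0.47 (exact sign-flip permutation p = 0.000977, adjusted 0.00358). The field percentile chose largely other objects: it kept 30.2% to 62.3% of the members of runs 1 and 2, and 20.5%, 9.72% and 5.29% of those of CONTROL 3, MELANOMA ICI 1 and CONTROL ICI 3.

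Few fields held most members in run 3. In CONTROL ICI 3 all 170 members lay in 10 of 169 fields, and 3 fields, with 7.25% of the kept objects, held 50% of them. In MELANOMA ICI 1, 8 of 492 fields held 50% of the members, with 3.63% of the kept objects, and in CONTROL 3 it was 14 of 515 fields with 3.89%. In runs 1 and 2 members occurred in 51.0% (CONTROL ICI 1) to 85.0% (CONTROL 2) of fields, and the fields that held 50% of them held 7.94% (MELANOMA ICI 2) to 19.7% (CONTROL 2) of the kept objects.

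Members that lay within 50 µm of each other were joined into chains. The longest such chain in the series was in CONTROL 3, where 492 members (46.2%) formed 1 chain that spanned 1948 µm. In CONTROL ICI 3 the 2 largest chains of 71 and 56 members held 74.7% of all members, and no member was alone. In MELANOMA ICI 1 the largest chain held 66 members (13.4%) and spanned 487 µm, within the range of the other runs. In runs 1 and 2 the largest chain held 15 (CONTROL ICI 2) to 84 members (MELANOMA ICI 2) and spanned 171 to 835 µm in the same sections. There 21.1% to 35.6% of members had no other member within 50 µm.

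The tissue around members was itself bright in DAPI. Objects of at least 100 µm3 with fewer than 10 transcripts are not ranked by the rule. Their brightness is still the stain that chose the members, measured close to them, so it is not independent of the choice. Where they lay within 25 µm of a member, their median DAPI per volume was 1.70 (MELANOMA ICI 3) to 2.05 times (MELANOMA ICI 2) that of the same kind of object near other kept objects only in runs 1 and 2. In run 3 it was 3.88 times in CONTROL 3, 5.41 times in MELANOMA ICI 1 and 6.73 times in CONTROL ICI 3, which rested on 303, 482 and 50 such objects near members. The mean log2 ratio was 1.31 ± 0.71 (n = 11), higher in 11 of 11 sections. It is given as a description without a p-value, since the stain of the rule was measured again beside the members.

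Within the same imaging field the ratio was smaller but still above 1 in 11 of 11 sections (mean log2 ratio 0.82 ± 0.51). It was 1.41 to 1.55 times in runs 1 and 2. In MELANOMA ICI 1, CONTROL 3 and CONTROL ICI 3 it was 1.89, 2.33 and 4.67 times. PolyT, also a stain of the rule, was higher per volume in those objects near members in 11 of 11 sections. The ratio was 1.28 to 1.84 times in run 3 and 1.05 to 1.10 times in the others. Members thus lay in DAPI-bright surroundings, and the part of those surroundings in the members' own brightness was not tested.

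**Figure D3:**
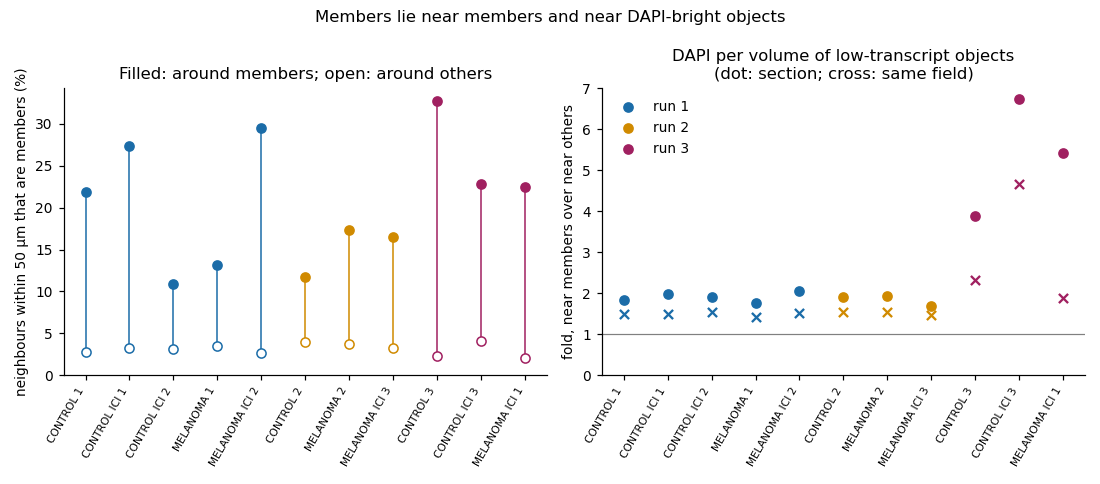
Left: percentage of kept neighbours within 50 µm that are members, around members (filled) and around other kept objects (open). Right: median DAPI per volume of objects with fewer than 10 transcripts near members over that near other kept objects (dots: whole section, crosses: same imaging field). In all 11 sections the filled point lies above the open one on the left and both marks lie above 1 on the right.

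Members had more kept neighbours than others in run 3 and fewer in runs 1 and 2. In run 3 the median number of kept neighbours within 50 µm was 28 for members and 19 for others in CONTROL 3, 31 and 17 in MELANOMA ICI 1, and 64 and 17 in CONTROL ICI 3. In run 1 it was 11 and 17 in CONTROL 1, 13 and 14 in CONTROL ICI 1, 11 and 15 in CONTROL ICI 2, 14 and 18 in MELANOMA 1, and 10 and 15 in MELANOMA ICI 2. In run 2 it was 17 and 20 in CONTROL 2, 14 and 16 in MELANOMA 2, and 16 and 21 in MELANOMA ICI 3. Members had the more kept neighbours in 3 of 3 sections of run 3 and the fewer in 8 of 8 sections of the other runs.

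Over all sections these opposite values cancelled, and the mean log2 ratio was 0.035 ± 0.78 (n = 11; exact sign-flip permutation p = 0.899, adjusted 0.899). Without run 3, a setting added after the data were examined, it was -0.37 ± 0.18 (n = 8). The 3 sections then left out are those with the opposite sign, so no test of the rest is given. For objects of any kind within 25 µm, the log2 ratio averaged 0.0015 ± 0.13 in runs 1 and 2, with 3 sections higher, 3 lower and 2 equal. In run 3 it averaged 1.38, with 10 and 5 such neighbours for members and others in CONTROL 3, 14 and 5 in MELANOMA ICI 1 and 19 and 6 in CONTROL ICI 3.

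The same split appeared in the share of packed objects, those with at least 12 kept neighbours within 25 µm. In run 3, 97.1% of members were packed in CONTROL ICI 3 (95% Wilson interval 93.3 to 98.7%), 46.4% in MELANOMA ICI 1 (42.0 to 50.8%) and 23.5% in CONTROL 3 (21.0 to 26.1%), against 18.0%, 8.18% and 5.17% of the others. In runs 1 and 2 the packed share of members was 0% (MELANOMA 2, 0 of 1074, interval up to 0.356%) to 1.54% (MELANOMA ICI 3), against 0.624% to 3.19% of the others. These intervals treat objects as independent, although neighbours share their packing, and are therefore too narrow. Of the DAPI-dense objects left out for PolyT, 84.4%, 96.7% and 95.2% were packed in CONTROL 3, CONTROL ICI 3 and MELANOMA ICI 1.

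Volume is part of the rule, as the divisor of DAPI and PolyT, and is described without a test. Members were larger than the others in runs 1 and 2 and smaller in run 3. Their median volume was 896 (MELANOMA 1) to 1152 µm3 (MELANOMA 2) in runs 1 and 2, against 532 (MELANOMA ICI 3) to 900 µm3 (MELANOMA 2) for others. In run 3 it was 1127 µm3 in CONTROL 3, 1009 in MELANOMA ICI 1 and 870 in CONTROL ICI 3, against 1624, 1659 and 1507 µm3. In run 3 the member-to-other ratio was 0.577 to 0.694, and in the other runs 1.00 to 1.73. The medians of members thus lay within a narrower range (870 to 1152 µm3) than those of the others (532 to 1659 µm3).

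The kept objects of a section were put in 5 equal classes of volume. Members made up 1.69% of the smallest class and 6.12% of the largest in CONTROL 1, and 1.73% and 8.76% in MELANOMA ICI 3. Not every section of runs 1 and 2 rose steadily. The smallest, middle and largest classes had 1.88%, 6.39% and 3.62% in CONTROL ICI 2 and 3.07%, 6.19% and 4.73% in MELANOMA 1. In run 3 members were more frequent in the smallest class than in the largest. They made up 5.53% of the smallest and 0% of the largest class in CONTROL ICI 3 (0 of 1773), and 3.48% and 0.173% in MELANOMA ICI 1. In CONTROL 3 they made up 3.73% of the smallest and 0.662% of the largest class.

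Transcripts per member were fewer than per other object in most sections. In run 1 the median was 18 for members and 22 for others in CONTROL 1, 18 and 17 in CONTROL ICI 1, 18 and 20 in CONTROL ICI 2, 19 and 27 in MELANOMA 1, and 17 and 22 in MELANOMA ICI 2. In run 2 it was 31 and 30 in CONTROL 2, 28 and 29 in MELANOMA 2, and 21 and 24 in MELANOMA ICI 3. In run 3 it was 45 and 50 in CONTROL 3, 36 and 26 in CONTROL ICI 3, and 22 and 35 in MELANOMA ICI 1. Many objects lay near the minimum of 10 transcripts. In run 1, 35.9% to 43.8% of members and 25.4% to 43.4% of others had 15 or fewer. The shares were 20.8% to 33.8% and 23.6% to 29.1% in run 2, and 6.47% to 27.9% and 8.74% to 22.6% in run 3. Members had the lower median in 8 of 11 sections, and the mean log2 ratio of -0.16 ± 0.31 did not pass the test (exact sign-flip permutation p = 0.111, adjusted 0.172). It passed without CONTROL ICI 3, at -0.23 (adjusted 0.0251), and with percentiles taken within imaging fields, at -0.26 and lower in 11 of 11 sections (adjusted 0.00358).

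**Figure D4:**
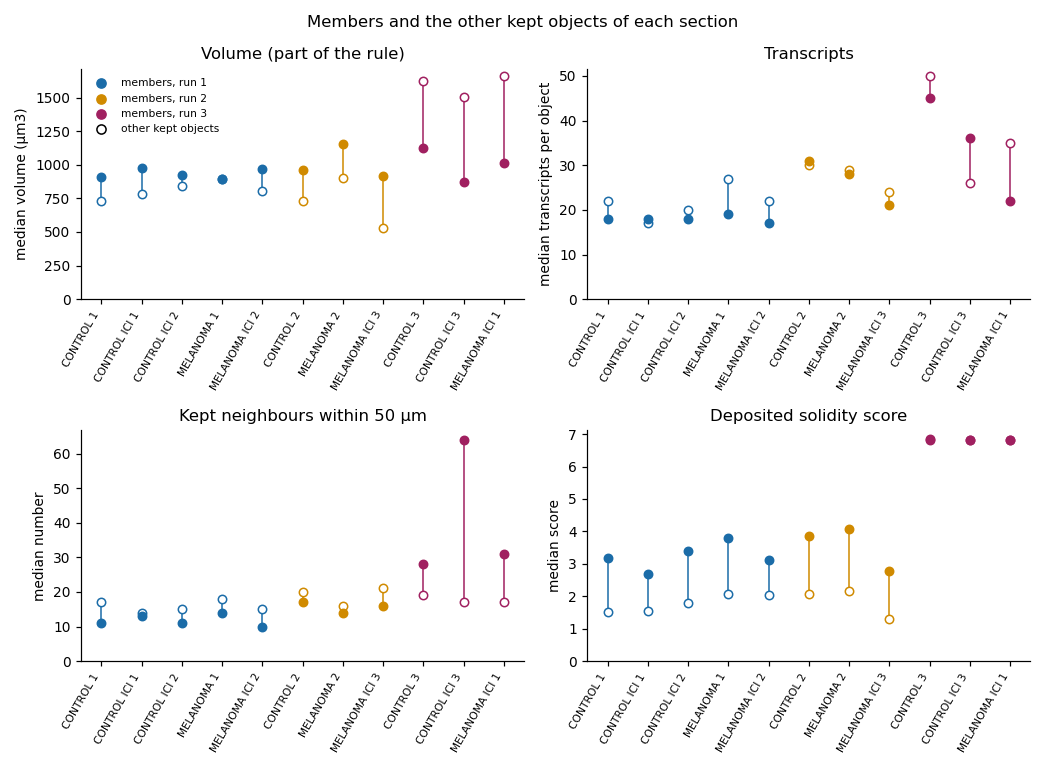
Medians of members (filled) and of the other kept objects (open) in each section, ordered by imaging run, for volume in µm3, transcripts per object, kept neighbours within 50 µm and the deposited solidity score. Volume and kept neighbours differ in opposite directions between run 3 and runs 1 and 2. Members have the higher solidity in all 8 sections of runs 1 and 2.

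At equal volume, members held fewer transcripts than other kept objects in 9 of 11 sections. Objects were compared within 20 classes of volume, on mean log2 transcripts. Members had 0.679 (MELANOMA 1), 0.699 (CONTROL 1), 0.714 (MELANOMA ICI 2), 0.801 (CONTROL ICI 2) and 0.996 times (CONTROL ICI 1) the transcripts of the others in run 1, written as folds on this log scale. In run 2 they had 0.596 (MELANOMA ICI 3), 0.741 (CONTROL 2) and 0.769 times (MELANOMA 2), and in run 3 0.835 (MELANOMA ICI 1), 1.08 (CONTROL 3) and 1.28 times (CONTROL ICI 3). The mean log2 difference was -0.29 ± 0.33 (n = 11; exact sign-flip permutation p = 0.0186, adjusted 0.0340). It was -0.43 ± 0.21 in runs 1 and 2, lower in 8 of 8 sections, and 0.069 ± 0.31 in run 3. The rule takes objects dense in PolyT out of the members but leaves them among the others. With these objects left out of both, the mean log2 difference at equal volume was smaller, at -0.23 ± 0.32. Members then had fewer transcripts in 8 of 11 sections. That difference averaged -0.37 in runs 1 and 2 and 0.14 in run 3.

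The size of the gap varied with volume and section. In the largest of 5 volume classes of MELANOMA ICI 3, members had a median of 48 transcripts and others 104, and in the smallest class 12 and 16. In CONTROL 2 the medians were 90.5 and 138 in the largest and 14 and 17 in the smallest class. In CONTROL 3 members had the higher median in each of the 5 classes, from 30 and 27 in the smallest to 100 and 90 in the largest. CONTROL ICI 1 had 40 and 34 in its largest class and 12 and 13 in its smallest.

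Where packing was matched as well, members had fewer transcripts in 11 of 11 sections, run 3 included. The folds were 0.581 in MELANOMA ICI 1, 0.816 in CONTROL 3 and 0.867 in CONTROL ICI 3, and 0.641 (MELANOMA ICI 3) to 0.995 (CONTROL ICI 1) in runs 1 and 2. The mean log2 difference was -0.38 ± 0.21 (exact sign-flip permutation p = 0.000977, adjusted over 6 added measures 0.00146). With the objects dense in PolyT left out of the comparison objects too, it was -0.35 ± 0.21, lower in 10 of 11 (exact sign-flip permutation p = 0.00195, adjusted 0.00234). In packed places, members had a median of 41.5 transcripts and other packed objects 67 in CONTROL 3. The medians were 37 and 56 in MELANOMA ICI 1, and 37 and 43 in CONTROL ICI 3. These other packed objects include DAPI-dense objects left out for PolyT. Such objects were 1048 of 2328 in CONTROL 3, 1183 of 2799 in MELANOMA ICI 1 and 265 of 1564 in CONTROL ICI 3. Outside packed places the medians were 47 and 49 in CONTROL 3, and 18 and 33 in MELANOMA ICI 1. Both matchings on packing were chosen after the data were examined.

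The lower count depends on how objects were kept and compared. With no minimum of 10 transcripts the log2 difference at equal volume was 0.13, higher in 5 of 11 sections (exact sign-flip permutation p = 0.763, adjusted 0.763), and against others of the same imaging field it was -0.099 (exact sign-flip permutation p = 0.0615, adjusted 0.144). With the objects dense in PolyT counted as members it was -0.15 (exact sign-flip permutation p = 0.287, adjusted 0.351), and leaving out any of 8 sections raised the adjusted p above 0.05, to between 0.0537 and 0.0680 (these 8 were all but CONTROL 3, CONTROL ICI 1 and CONTROL ICI 3).

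Few members were also rich in transcripts. Of members, 0.405% (MELANOMA ICI 1) to 7.82% (CONTROL ICI 1) were among the top 5% of kept objects by transcripts, with a median over sections of 1.69%, and only CONTROL ICI 1 was above 5%. Among the top 5% by anisotropy, taken as the long axis over the short one, were 1.78% (CONTROL ICI 2) to 4.11% of members in runs 1 and 2 and 4.12%, 6.39% and 9.11% in CONTROL ICI 3, CONTROL 3 and MELANOMA ICI 1.

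The shape of members also followed the run. Median anisotropy was lower in members than in others in 7 of 8 sections of runs 1 and 2, for example 1.44 and 1.57 in CONTROL ICI 2, while in MELANOMA ICI 3 it was higher by a log2 ratio of 0.0023. It was higher in 3 of 3 sections of run 3, for example 1.40 and 1.32 in MELANOMA ICI 1. Over all sections the mean log2 ratio was -0.027 ± 0.067 (exact sign-flip permutation p = 0.208, adjusted 0.254). At equal volume members were rounder in 9 of 11 sections, by a mean log2 difference of -0.043 ± 0.044, or 0.970-fold (exact sign-flip permutation p = 0.0107, adjusted 0.0258). It averaged -0.062 in runs 1 and 2, lower in 8 of 8 sections, and 0.0048 in run 3, higher in 2 of 3. The adjusted p was 0.0516 without CONTROL 2, MELANOMA 1, MELANOMA 2 or MELANOMA ICI 2. The perimeter-to-area value, which is low for compact outlines, was lower at equal volume in 9 of 11 sections, with a mean log2 difference of -0.047 ± 0.046 (exact sign-flip permutation p = 0.0117, adjusted 0.0258). It averaged -0.070 in runs 1 and 2, lower in 8 of 8, and 0.012 in run 3, higher in 2 of 3. The same 4 sections, and also CONTROL 1 or MELANOMA ICI 3, each left out alone, brought its adjusted p to 0.0516.

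The deposited score named solidity was higher in members in 8 of 8 sections of runs 1 and 2. Its definition is not given in the sources used here. The name usually stands for the share of its convex hull that an outline fills, but medians near 7 occur, which no such share can reach, so the score is given as a value and not read as a shape. Members were also larger than others in these 8 sections. The members' median was 2.68 (CONTROL ICI 1) to 4.08 (MELANOMA 2) in runs 1 and 2 and that of others 1.30 (MELANOMA ICI 3) to 2.15 (MELANOMA 2), with no overlap. In run 3 members scored lower than others in 3 of 3 sections, by a mean of -0.022, for example 6.81 and 6.84 in CONTROL 3. The mean difference was 1.12 ± 0.78 (n = 11; exact sign-flip permutation p = 0.00781, adjusted 0.0258), and the adjusted p was 0.0516 without CONTROL 2, MELANOMA 1, MELANOMA 2 or MELANOMA ICI 2, each left out alone. Against others of the same imaging field the difference was 0.80 (exact sign-flip permutation p = 0.00781, adjusted 0.0547).

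The place of members within the imaging field and the section was examined as well. On a scale from 0 at the centre of a field to 1 at its outermost objects, members and others differed by -0.0073 ± 0.047 on average (exact sign-flip permutation p = 0.684, adjusted 0.752). In 5 of 5 sections of run 1 members lay farther from the centre, by 0.016 to 0.037. In run 2 the difference averaged -0.015, and in run 3 -0.052, with members nearer the centre in 2 of 3 sections of each. A square of 100 µm counted as tissue edge when any square around it held no object, so squares beside gaps inside the section also counted. In these squares members were less frequent than others in 10 of 11 sections. An example was MELANOMA ICI 2, with 2.47% of members and 7.48% of others. The mean difference was -1.68 ± 1.60 percentage points (exact sign-flip permutation p = 0.00586, adjusted 0.0258), and CONTROL 3 was the exception, with 4.42% and 3.65%. By run the difference averaged -2.12, -1.18 and -1.46 percentage points in runs 1, 2 and 3. Without MELANOMA 1 or MELANOMA ICI 2 the adjusted p was 0.0516.

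ICI-treated and isotype-treated mice were compared for any difference in these objects. Transcripts per member overlapped between the groups and did not pass the test. The medians were 18, 31 and 45 transcripts per member in CONTROL 1, 2 and 3 (mean 31.3 ± 13.5, SD, n = 3) and 18, 18 and 36 in CONTROL ICI 1, 2 and 3 (24 ± 10.4). They were 19 and 28 in MELANOMA 1 and 2 (23.5 ± 6.36, n = 2) and 22, 17 and 21 in MELANOMA ICI 1, 2 and 3 (20 ± 2.65, n = 3). The ICI effect, the mean of the log2 differences with and without a tumour, was -0.29 (exact permutation p = 0.31, adjusted over 12 measures 0.667), and -0.22 within runs, where 3 of 4 strata were negative (exact permutation p = 0.25, adjusted 0.583). With 1 section left out it ran from -0.47 (without CONTROL 1) to -0.14 (without CONTROL 3). Within runs only strata that hold both treatments count, so CONTROL 2 and MELANOMA ICI 1 drop out. Of the 4 strata, 3 set a single section against another.

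With ICI, the log2 gap in transcripts to other objects at equal volume shifted by 0.13 (two-sided exact permutation test, p = 0.46, adjusted 0.667) and 0.077 within runs (exact permutation p = 0.625, adjusted 0.938). With 1 section left out it ran from 0.044 (without CONTROL ICI 3) to 0.23 (without CONTROL 3). For the gathering of members around members the ICI effect, 0.34 (two-sided exact permutation test, p = 0.5, adjusted 0.667), turned to -0.051 within runs, and ran from 0.038 (without CONTROL 2) to 0.61 (without CONTROL 3) with 1 section left out. The lowest p of the 12 measures belonged to the share at the tissue edge. There members fell short of others by -0.40 ± 1.19 percentage points in CONTROL, -0.45 ± 0.37 in MELANOMA, -1.97 ± 0.67 in CONTROL ICI and -3.51 ± 1.33 in MELANOMA ICI. The ICI effect of -2.32 percentage points (exact permutation p = 0.015, adjusted 0.18) did not pass the adjustment, and with run as a stratum it came to -2.64 and was negative in 4 of 4 strata (exact permutation p = 0.125, adjusted 0.583).

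Mice with and without a melanoma were compared in the same way, and no measure passed the adjustment. At equal volume members had 0.679 and 0.769 times the transcripts of other objects in MELANOMA and 0.699, 0.741 and 1.08 times in CONTROL. They had 0.596, 0.714 and 0.835 times in MELANOMA ICI and 0.801, 0.996 and 1.28 times in CONTROL ICI. On the log2 scale the tumour effect came to -0.35, or 0.786-fold (exact permutation p = 0.105, adjusted 0.63). With run as a stratum it came to -0.23 and was negative in 3 of 4 strata (exact permutation p = 0.25, adjusted 0.75). Without matching, the ratio of median transcripts gave -0.35 (exact permutation p = 0.065, adjusted 0.63) and -0.45 within runs, where 4 of 4 strata were negative (exact permutation p = 0.0833, adjusted 0.75).

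For transcripts per member it was -0.27 (exact permutation p = 0.44, adjusted 0.965) and -0.22 within runs (exact permutation p = 0.25, adjusted 0.75). With 1 section left out it ran from -0.44 (without CONTROL 1) to -0.10 (without CONTROL ICI 3). For the gathering of members it came to -0.041 (exact permutation p = 0.965, adjusted 0.965), and to 0.40 within runs (exact permutation p = 0.5, adjusted 0.812).

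**Figure D5:**
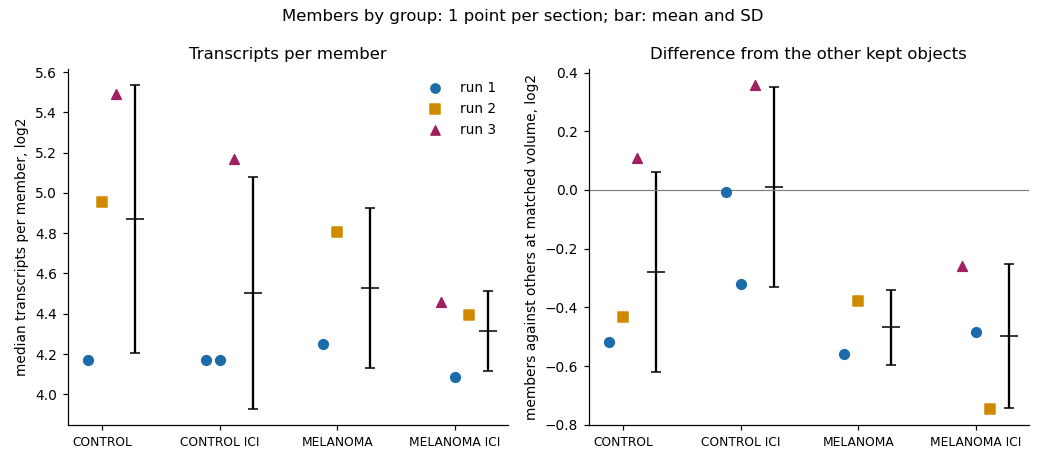
Median transcripts per member (left, log2) and the difference in mean log2 transcripts between members and other objects at equal volume (right), 1 point per section by group, with the imaging run as colour and marker and the group mean and SD as bars. The groups overlap on the left, and on the right the 5 sections of tumour-bearing mice lie between -0.75 and -0.26 and the 6 of tumour-free mice between -0.52 and 0.36.

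The ICI effect in tumour-bearing mice minus that in tumour-free mice was also tested, against the null of no ICI effect in either. For transcripts at equal volume the difference was -0.32 (exact permutation p = 0.36, adjusted 0.849), and -0.45 within runs (exact permutation p = 0.167, adjusted 0.4). With 1 section left out it ran from -0.51 (without CONTROL 3) to -0.15 (without CONTROL ICI 3). Over 12 measures and 3 contrasts, 0 of 36 exact permutation tests passed 0.05 after adjustment and 2 did before it. With run as a further stratum the counts were 0 and 1. There the interaction leaves out the same sections as the ICI effect. The smallest p the design allows is 0.005 without runs and 0.0417 within them, so in neither setting could a single measure pass an adjustment over 12 measures by itself, and the count of 0 says little about whether the groups differ.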

How the data were processed

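Each of 11 files holds 1 section with 17 columns per object. Transcript counts are raw totals per object, per the file headers. The deposited DAPI and PolyT intensity columns were taken as sums over the object and divided by its volume. Anisotropy is a deposited ratio, and solidity and perimeter-to-area are deposited scores of undefined scale. The sources used here do not give the segmentation software or its settings. Volumes and positions carry no unit and were taken as µm3 and µm. Python 3.11.15, numpy 2.4.6, pandas 2.3.3 and scipy 1.17.1 were used.

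Objects were never replicates. Each section gave 1 value per measure, and 11 measures were tested by two-sided exact sign-flip over sections. The DAPI and PolyT conditions take none of them as input, but not all are independent of the rule. The share of members among neighbours is counted from membership itself. The measures at equal volume are matched on the divisor of both conditions. The minimum of 10 transcripts bounds the transcript measures from below. Group contrasts (12 measures) permuted labels within strata (200 arrangements, or 24 with runs), with Benjamini-Hochberg adjustment per family and a threshold of 0.05. With runs, strata that lack either label drop out, so not all 11 sections enter. At equal volume, mean log2 transcripts were compared within 20 volume classes, weighted by members. Field position used fields spanning at least 180 µm. Tests were tried on simulated data. No gene is named. Members, measures and alternatives were chosen with earlier results of these data known. Sections held 349960 to 3164943 transcripts.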

Additional observations from a re-analysis of the deposited data

Results flagged for a closer look

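The log2 difference in anisotropy between members and other objects at equal volume had ICI effects of opposite sign in the 2 tumour states, which did not pass adjustment. It averaged -0.025 ± 0.043 in CONTROL (n = 3) and -0.074 ± 0.032 in CONTROL ICI (n = 3), while MELANOMA had -0.075 ± 0.0011 (n = 2) and MELANOMA ICI -0.0098 ± 0.048 (n = 3). The difference of the 2 ICI effects was 0.11 (exact permutation p = 0.04), which adjusted over 12 measures to 0.48, and with run as a stratum 0.10 (exact permutation p = 0.0833, adjusted 0.333). It drew attention by its unadjusted p alone, and about 1 in 20 such tests passes by chance.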

How the results depend on the processing

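Of 11 measures of members against other objects, 6 passed after adjustment. With 1 section left out 1 to 7 passed (1 without MELANOMA 1 or MELANOMA ICI 2, 2 without CONTROL 2 or MELANOMA 2), and 0 passed in imaging run 1, 2 or 3 alone, where an exact sign-flip p cannot fall below 0.0625, 0.25 and 0.25. The log2 difference in transcripts at equal volume was -0.20 with a DAPI cut at the 90th percentile (exact sign-flip permutation p = 0.0645, adjusted 0.101) and -0.35 at the 99th (exact sign-flip permutation p = 0.0381, adjusted 0.0952), which left 1 to 8 members per section of run 3. It was -0.15 with objects dense in PolyT counted as members, -0.099 against others of the same field, 0.13 with no transcript minimum, and -0.38, -0.52 and 0.069 in runs 1, 2 and 3 alone. It ranged from -0.36 to -0.25 with 1 section left out, and passed only without CONTROL 3, CONTROL ICI 1 or CONTROL ICI 3. The log2 ratio for members among neighbours was 2.65, 2.06 and 3.27 in the runs alone and 2.54 to 2.76 with 1 section left out. The other alternatives left both on the same side of the threshold, and cutting at the 99th percentile gave no finite ratio.

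Among other measures, the log2 ratio of transcripts per object was 0.14 with no transcript minimum. It passed with field percentiles (-0.26, adjusted exact sign-flip p = 0.00358), high-pass filtered stains (-0.44, adjusted 0.00430), means over objects (-0.33, adjusted 0.0264) and without CONTROL ICI 3 (-0.23, adjusted 0.0251). The log2 ratio of anisotropy passed with field percentiles (-0.057, adjusted 0.0295) and high-pass filtered stains (-0.044, adjusted 0.0477). It was -0.061 without run 3, whose 3 sections all had the opposite sign, so no test of the rest is given. The log2 ratio of kept neighbours was -0.35 with the stricter filter (200 µm3 and 50 transcripts), -0.067 at the 99th percentile, -0.078 with percentiles by field, -0.43 and -0.27 in runs 1 and 2 alone, -0.37 without run 3, and -0.15 to 0.10 with 1 section left out. Solidity differed by -0.022 in run 3 alone and by 0.80 against others of the same field (adjusted 0.0547), and the log2 ratio of anisotropy was 0.014 with the stricter filter and 0.063 in run 3 alone. The tumour effect on transcripts per member was 0.044 with the stricter filter and 0.018 without run 3, and that on members among neighbours 0.40 within runs, 0.14 without run 3 and -0.35 to 0.22 with 1 section left out. The ICI effect on transcripts at equal volume was -0.035 at the 99th percentile, that on members among neighbours -0.051 within runs, and the interaction on transcripts at equal volume 0.026 with high-pass filtered stains. The cause of these changes was not tested.

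Replicate numbers did not pair sections across runs. The correlation of deviations from group means over 12 measures was taken for 15 same-numbered pairs. It ran from -0.70 to 0.64, with 8 above 0.1. In the 6 pairs that shared a run it was 0.28 to 0.64, and in pairs from different runs -0.70 to 0.35. With the replicate block the tumour effect on members among neighbours was 0.22 (exact sign-flip permutation p = 0.688), the ICI effect on transcripts per member -0.31 (exact sign-flip permutation p = 0.25), and 0 of 36 tests passed, as had to be, since its smallest possible p is 0.0625.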
